A study of Mus musculus with 12 samples.

Results

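The genes described here are 10 components of Nodal signalling in the mouse 8-cell embryo, out of 55401 genes counted in each library. They are the ligands Nodal and Gdf3, the convertases Furin and Pcsk6, the co-receptor Tdgf1 (Cripto), the transcription partner Foxh1, the inhibitors Lefty1, Lefty2 and Smad7, and the target Gsc (Goosecoid). The list was chosen by gene name together with a measured pattern of these libraries, the lower level of Tdgf1 and the higher level of Gsc after Nr5a2 knockdown (KD). Values of these genes that compare libraries with and without Nr5a2 siRNA are therefore given as a description, with no test. Tests are given for Klf5 KD against control and for the double knockdown against Nr5a2 KD, which share libraries with that pattern, and for the pathway genes outside the list. Those pathway genes were also listed with earlier results of these data known.

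Nodal is a ligand of the TGF-beta family that is cleaved by proprotein convertases and binds activin receptors together with a co-receptor of the EGF-CFC family, of which Tdgf1 is one. The receptors phosphorylate SMAD2 and SMAD3, which enter the nucleus with SMAD4 and act with FOXH1 on target genes such as Gsc, while the Lefty proteins and SMAD7 restrain the signal. The pathway is best known for patterning the embryo after implantation, and Nodal and Tdgf1 are also studied in the pluripotent cells of the blastocyst.

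RNA-seq was performed on 12 libraries, each from a pool of 10 embryos of B6129F1 females mated with B6CBAF1 males. Zygotes were injected with 15 µM control siRNA (control, n = 2), 5 µM Nr5a2 siRNA (Nr5a2 KD, n = 3), 10 µM Klf5 siRNA (Klf5 KD, n = 3) or both (Nr5a2 Klf5 dKD, n = 4), and the siRNA concentrations combined for the dKD are not stated in the sources used here. All 4 groups also received H2B-EGFP mRNA as an injection marker, ERCC spike-in RNA was put into the lysis buffer, and a pool does not separate embryos that took up different amounts of siRNA. The questions were which genes depend on NR5A2, an orphan nuclear receptor, which depend on KLF5, a zinc finger factor, and whether the loss of both differs from the loss of one.

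Libraries held from 6676683 to 12560926 gene counts. Nr5a2 RNA averaged 14.7% of control in Nr5a2 KD, 88.2% in Klf5 KD and 13.7% in dKD, and Klf5 RNA averaged 30.6%, 24.5% and 12.3% of control in the same order. Klf5 was thus low in all 3 knockdown groups. Genes listed to check the embryo label were Pou5f1, Dppa3, Tfap2c, Zp3 and Nlrp5. Zp3 and Nlrp5 are oocyte transcripts that the embryo inherits rather than markers of the 8-cell stage. Whether the others, Dppa3 among them, mark that stage alone was not tested. All the listed genes were counted in every library. They summed to between 14582 and 17313 CPM (counts scaled to library size) in control and between 21597 and 29621 in Nr5a2 KD. Dppa3 made up nearly the whole of this sum, with a mean of 15809 CPM in control and 25354 CPM in Nr5a2 KD. The mean in control and in Nr5a2 KD was 62.1 and 30.7 CPM for Tfap2c, 18.1 and 8.81 for Nlrp5, 11.9 and 9.09 for Pou5f1, and 46.0 and 49.7 for Zp3. The summed level of 6 cumulus cell markers was 8.97 to 20.8 CPM, most of it Amhr2 (8.27 to 20.3 CPM per library). Foxl2 reached at most 1.93 CPM, Has2, Amh and Fshr had 4.5, 2 and 1 counts over the 12 libraries, and Ptx3 was at 0 in every library. The share of mitochondrial counts was 12.9 to 13.2% in control and reached down to 6.18% in Nr5a2 KD, 4.41% in Klf5 KD and 6.17% in dKD, and its part in the results was not tested beyond a fit that includes it as a covariate.

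The promoters of Tdgf1 and Gsc, the members that moved furthest, are shown from 250 bases before to 50 bases after the RefSeq start (GRCm38.p6, minus strand, 5′ to 3′). The Tdgf1 window is chr9:110946109-110946408 and the Gsc window is chr12:104473187-104473486. Capitals mark TGTNNATT, a motif of FOXH1, and GGGNGTGG, a CACCC-type box of KLF proteins, on either strand.
Tdgf1: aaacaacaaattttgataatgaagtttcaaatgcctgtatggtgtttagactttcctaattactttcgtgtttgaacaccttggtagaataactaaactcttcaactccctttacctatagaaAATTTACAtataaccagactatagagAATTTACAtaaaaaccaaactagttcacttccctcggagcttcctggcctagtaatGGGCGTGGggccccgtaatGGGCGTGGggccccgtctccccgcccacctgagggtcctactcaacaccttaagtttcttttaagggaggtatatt
Gsc: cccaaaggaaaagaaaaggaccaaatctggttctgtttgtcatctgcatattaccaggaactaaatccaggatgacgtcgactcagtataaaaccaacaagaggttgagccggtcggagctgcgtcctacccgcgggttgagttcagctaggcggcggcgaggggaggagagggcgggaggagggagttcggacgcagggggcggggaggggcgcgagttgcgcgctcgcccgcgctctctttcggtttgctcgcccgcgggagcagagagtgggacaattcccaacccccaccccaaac
The Tdgf1 window held 2 copies of TGTNNATT on the opposite strand, beginning at -127 and -101 from the start, and 2 copies of GGGNGTGG on the gene's strand, beginning at -45 and -26. The KLF box was added to the search after the Tdgf1 window had been read. Of 32851 RefSeq promoters of this length, 12.2% held TGTNNATT and 17.6% held GGGNGTGG. The letters AAGGNCA, the core of the NR5A2 motif, were found in neither window and in 20.3% of all promoters. The longer form TCAAGGNCA, which overlaps it, was found in neither window and in 1.62% of promoters, and GGTGTGG, another KLF motif that GGGNGTGG can contain, was found in neither and in 7.58%. The Gsc window held none of these motifs, and the RefSeq start of Gsc lies inside the gene as annotated in the files. GC content was 41.7% in the Tdgf1 window and 60.3% in the Gsc window.

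In control embryos the members differed widely in level. Per kilobase of exon, Tdgf1 was highest at 16.4 ± 5.65 CPM (SD, n = 2), above 81.3% of the genes with enough counts for testing. Gsc was at 3.04 ± 0.102 CPM per kilobase and Gdf3 at 2.96 ± 0.203, neighbours in this order whose difference was within their spread. Smad7 followed at 1.66 ± 1.59, Pcsk6 at 0.538 ± 0.395, Furin at 0.148 ± 0.0237 and Foxh1 at 0.0983 ± 0.139 CPM per kilobase. The spread of Smad7 was nearly as large as its mean, so its place beside Gdf3 and Pcsk6 is not settled by these 2 libraries. Nodal, Lefty1 and Lefty2 were at 0 in both control libraries. Of the 10 members, 6 passed the filter on low counts over the 12 libraries (Tdgf1, Gsc, Gdf3, Smad7, Pcsk6 and Furin).

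**Figure D1:**
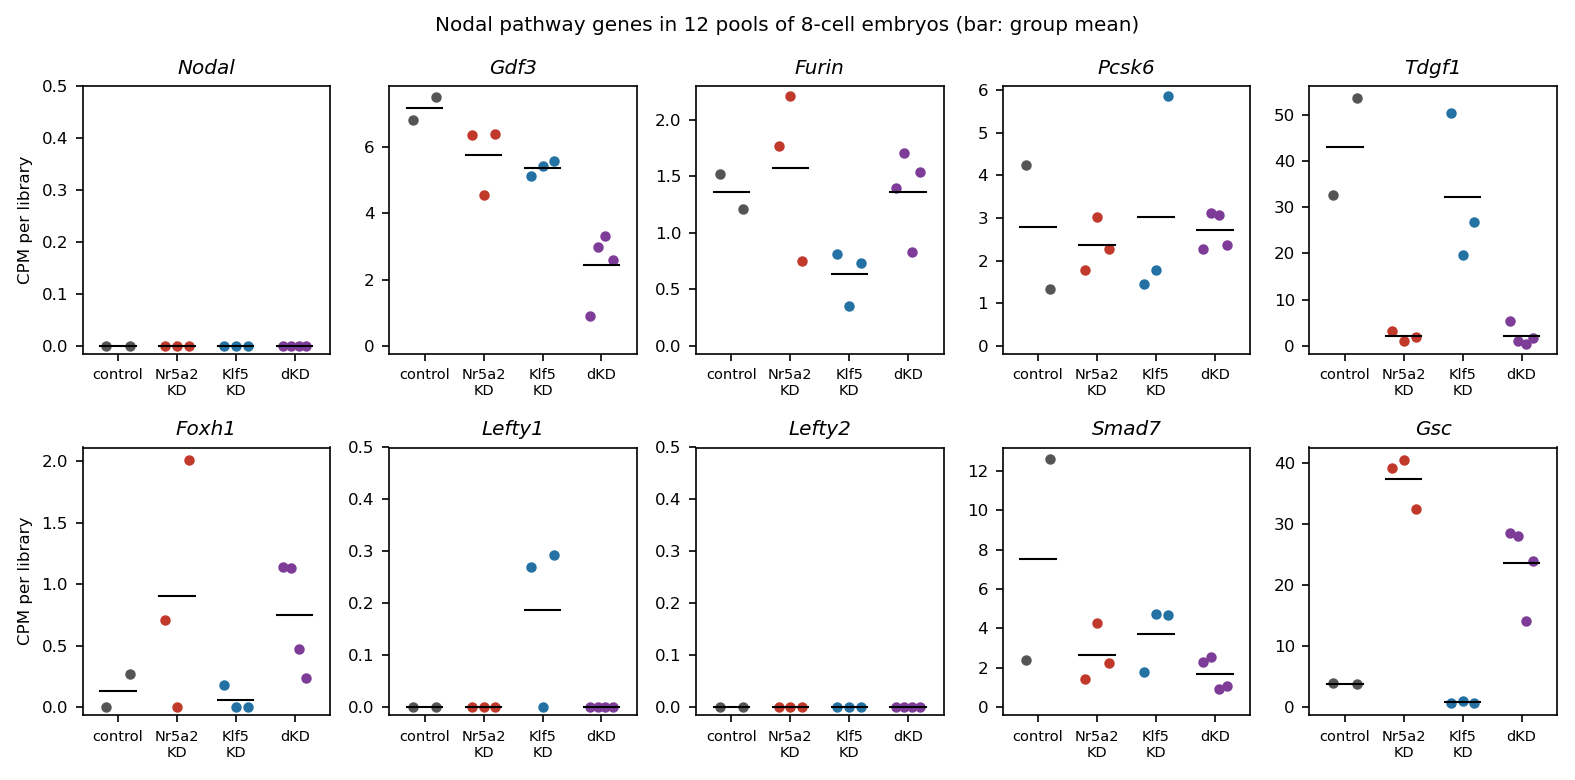
CPM of each of the 10 members in the 12 libraries (points) by group, with the group mean as a bar and a separate linear axis from 0 in each panel. Tdgf1 was at 0.472 to 5.44 CPM in Nr5a2 KD and dKD and at 19.7 or more elsewhere, while Gsc was at 14.1 CPM or more in Nr5a2 KD and dKD and below 4 elsewhere.

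Among the ligands, no read of Nodal (ENSMUSG00000037171, chr10:61417972-61425338) was counted in any of the 12 libraries. A count of 0 allows up to 3 counts, or 0.270 to 0.455 CPM depending on the library, and this limit covers counting error only. Gdf3, a ligand of the same branch that also signals through Tdgf1, was counted in all 12 libraries (chr6:122605403-122610087). Its level was 6.82 and 7.51 CPM in control, 6.37, 4.55 and 6.41 CPM in Nr5a2 KD, 5.13, 5.43 and 5.58 CPM in Klf5 KD, and 0.885, 2.98, 3.31 and 2.60 CPM in dKD. Every dKD library was below every library of the other 3 groups, as was so for 0.492% of the genes tested over all 12 libraries. This share was computed only for the pattern and direction seen in Gdf3, a gene of the chosen list, so nothing is read from it. Without regard to direction, dKD did not overlap control for 36.2% of tested genes and did not overlap Klf5 KD for 24.9%, and nothing is read from these shares since the list was chosen on such contrasts. In these bulk libraries, fewer cells that express a gene and less RNA per cell cannot be told apart.

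Gdf3 in dKD was 34.1% of control, with a log2 fold change of -1.51 (standard error 0.504), and in Nr5a2 KD it was 80.6%, with a log2 fold change of -0.28 (0.399). With ERCC counts in place of TMM the value for Nr5a2 KD was 0.53 and that for dKD -0.69. Between dKD and Nr5a2 KD, Gdf3 was lower by a log2 fold change of -1.23 (standard error 0.452). The adjusted p was 0.999 in edgeR's quasi-likelihood test, so the difference did not pass. The groups did not overlap, as was so for 4.72% of the genes tested. Gdf3 in Klf5 KD also lay below both control libraries, at a log2 fold change of -0.41 (0.393) and an adjusted p of 0.799 in the edgeR test, where 26.9% of tested genes did not overlap.

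The convertases, which cleave ligand precursors, were counted at low levels. Furin was at 1.52 and 1.21 CPM in control, 1.77, 2.20 and 0.754 in Nr5a2 KD, 0.810, 0.354 and 0.734 in Klf5 KD, and 1.39, 1.70, 0.827 and 1.54 in dKD. The 3 Klf5 KD libraries were below both control libraries, as was so in either direction for 26.9% of tested genes, but Furin fell under the filter in that comparison and was not tested. Pcsk6 (PACE4) was at 4.24 and 1.34 CPM in control, 1.77, 3.03 and 2.26 in Nr5a2 KD, 1.44, 1.77 and 5.87 in Klf5 KD, and 2.28, 3.12, 3.07 and 2.36 in dKD. All 4 groups overlapped for Pcsk6, and its log2 fold change from control was 0.10 in Klf5 KD (standard error 0.733, adjusted p = 0.984, edgeR) and took either sign when a control library was left out, 1.15 without replicate 1 and -0.50 without replicate 2. Reads of Furin and Pcsk6 may also fall on genes that share their exons, Gm44851 for 1.29% of Furin and Gm45213 for 3.01% of Pcsk6.

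Tdgf1, the Nodal co-receptor (ENSMUSG00000032494, chr9:110939603-110946158), was the member with the lowest level in Nr5a2 KD relative to control. It was at 32.6 and 53.5 CPM in control and at 3.18, 1.10 and 1.88 CPM in Nr5a2 KD, or 4.78% of control. In dKD it was at 5.44, 0.993, 0.472 and 1.77 CPM, or 5.04% of control, and in Klf5 KD at 50.3, 19.7 and 26.7 CPM, or 74.9%. The Nr5a2 KD and dKD libraries were all below 6 CPM and the others all above 19. Such a separation, in either direction, held for 11.7% of the genes tested over all 12 libraries, and that of Nr5a2 KD from control alone for 42.5% of those tested there.

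The log2 fold change of Tdgf1 was -4.34 (standard error 0.406) in Nr5a2 KD against control, -4.27 (0.593) in dKD against control and -3.88 (0.590) in dKD against Klf5 KD. The values against control share the 2 control libraries. With each library left out in turn, these log2 fold changes ranged from -4.8 to -3.9, from -5.3 to -3.9 and from -4.9 to -3.4, in the same order. In Klf5 KD against control the value was -0.40 (0.397, adjusted p = 0.807, edgeR), it was 0.02 without control replicate 2, and it was 0.32 with ERCC counts in place of TMM. Between dKD and Nr5a2 KD the log2 fold change was 0.07 (0.739), with an adjusted p of 0.999 (edgeR). Leaving out dKD replicate 1, the highest of its group, moved it to -0.92. A pseudogene, Tdgf1-ps1, holds 8.86% of the 50-base stretches of the Tdgf1 transcripts and had at most 1 count in any library.

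Foxh1, the DNA-binding partner of the SMADs, had between 0 and 15.5 deposited counts per library and passed the filter in no comparison. It was at 0 and 0.268 CPM in control, 0.708, 0 and 2.01 CPM in Nr5a2 KD, 0.180, 0 and 0 CPM in Klf5 KD, and 1.14, 1.13, 0.472 and 0.236 CPM in dKD. Klf5 KD replicate 2 had 0.5 deposited counts, rounded to 0. The limit that 3 counts set in the 4 libraries at 0 CPM was 0.354 to 0.455 CPM, and no fold change is given.

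Of the inhibitors, Lefty2 was at 0 in all 12 libraries and Lefty1 in 10 of them. Lefty1 had 3 counts in Klf5 KD replicate 1 and 2 counts in Klf5 KD replicate 3. The pair share sequence, with 17.9% of the 50-base stretches of Lefty1 found in another gene, so single reads may be assigned to either. Smad7, an inhibitory SMAD, was at 2.42 and 12.6 CPM in control, 1.42, 4.27 and 2.26 in Nr5a2 KD, 1.80, 4.72 and 4.70 in Klf5 KD, and 2.28, 2.55, 0.945 and 1.06 in dKD. Control replicate 2 stood above every other library, while control replicate 1 lay within the range of Nr5a2 KD and of Klf5 KD and inside that of dKD. The log2 fold change of Smad7 was -1.49 (standard error 0.671) in Nr5a2 KD and -2.11 (0.640) in dKD against control, and without control replicate 2 these were 0.15 and -0.47. In Klf5 KD it was -1.04 (0.628, adjusted p = 0.651, edgeR), and 0.62 without that library.

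Gsc, a homeobox gene and a classical Nodal target (ENSMUSG00000021095, chr12:104471209-104473330), was the member with the highest level in Nr5a2 KD relative to control. It was at 3.94 and 3.76 CPM in control and at 39.1, 40.5 and 32.4 CPM in Nr5a2 KD. In dKD it was at 28.6, 27.9, 14.1 and 23.9 CPM, and in Klf5 KD at 0.720, 0.945 and 0.734 CPM. The 4 groups did not overlap, in the order Klf5 KD, control, dKD and Nr5a2 KD. Groups did not overlap for 26.9% of tested genes in Klf5 KD against control and for 4.72% in dKD against Nr5a2 KD. The share was 42.5% in Nr5a2 KD against control, 36.2% in dKD against control and 24.9% in dKD against Klf5 KD. How many genes separate all 4 groups was not computed, so nothing is read from this order.

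The log2 fold change of Gsc from control was 3.30 (standard error 0.307) in Nr5a2 KD, a 9.84-fold difference, and 2.65 (0.373) in dKD, a 6.26-fold difference. Against Klf5 KD, dKD was higher by 4.87 (0.408). In Klf5 KD, with 5 to 8 deposited counts per library beside 26 and 28 in control, the log2 fold change was -2.24 (0.641), with an adjusted p of 0.406 in edgeR's test, which did not pass. In the 13 alternative fits the sign was negative throughout, with adjusted p between 0.0694 and 0.997. Between dKD and Nr5a2 KD the value was -0.66 (0.251), adjusted p = 0.999 (edgeR). The interaction of the knockdowns, the log2 difference between the dKD and what the 2 single knockdowns add up to, was 1.59 (0.481) for Gsc. It contains the difference between Nr5a2 KD and control and is given with no test.

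**Figure D2:**
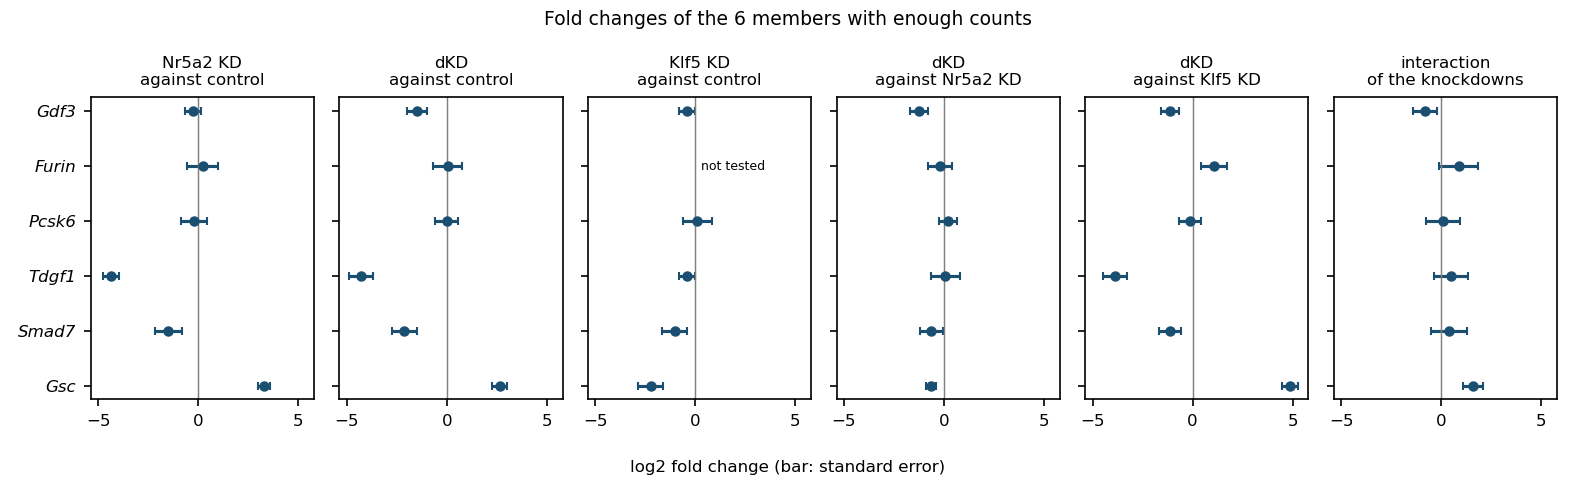
Log2 fold change (points) with its standard error (bars) of the 6 members with enough counts in the 5 comparisons and the interaction. Tdgf1 and Gsc lie on opposite sides of 0 in the 3 comparisons of a group that received Nr5a2 siRNA with one that did not, and Furin was not tested in Klf5 KD against control.

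Genes were called when they differed 2-fold or more with an adjusted p under 0.05. In Nr5a2 KD against control, dKD against control and dKD against Klf5 KD, 7.86%, 7.24% and 10.8% of tested genes were called, and no test of the members is given there. In Klf5 KD against control and in dKD against Nr5a2 KD no member was called. The background was 0% in both and for the interaction, with 1088, 447 and 715 genes at an unadjusted p under 0.05, and DESeq2 called 50, 4 and 3 genes. In Klf5 KD against control, edgeR called 146 lower and 107 higher genes with a replicate block and 69 and 45 with no filter on low counts.

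The rest of the pathway was read from a list of 63 other genes of the Nodal, activin and BMP branches, of which 36 were tested in Nr5a2 KD against control. Of these, 4 fell (Bmp7, Bmpr1a, Ski and Mixl1) and 1 rose (Id2), 13.9% of the tested list beside 7.86% of all tested genes. The list was written with earlier results of these data known, so its shares are a description only. The median log2 fold change of the list was -0.14 and that of all tested genes 0.04. In dKD against control 3 of 37 fell (Bmp7, Ski and Mixl1) and Id2 rose, 10.8% of the tested list beside 7.24% of all tested genes. The same 4 genes were called, in the same directions, in dKD against Klf5 KD, where the share was 10.8% both of the list and of all tested genes. The list medians were -0.19 and 0.07 beside 0.05 and 0.02 for all tested genes. In Klf5 KD against control 0 of 37 were called and 3 had an unadjusted p under 0.05, in dKD against Nr5a2 KD 0 of 35 and 1, and for the interaction 0 of 40 and 1 (edgeR). DESeq2 called 0 in each, and edgeR with a replicate block called Mixl1 lower in Klf5 KD against control.

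**Figure D3:**
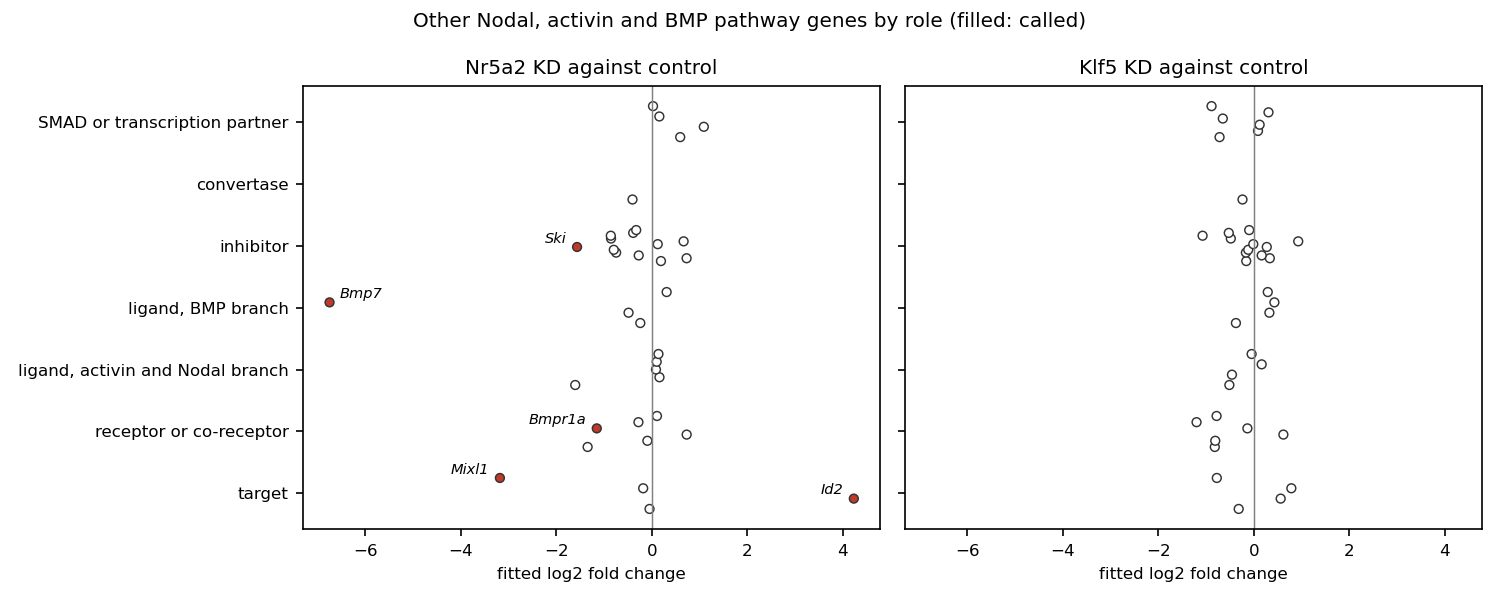
Fitted log2 fold change of the tested genes of the wider list by role, in Nr5a2 KD and in Klf5 KD against control. Filled points are called genes, 5 in Nr5a2 KD and 0 in Klf5 KD, and the position of Bmp7 depends on how counts of 0 are handled.

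Among the targets, Mixl1, a homeobox gene induced by Nodal in the primitive streak, fell where Gsc was higher. It was at 11.2 and 13.1 CPM in control, 1.42, 1.38 and 1.13 in Nr5a2 KD, 4.86, 3.31 and 13.5 in Klf5 KD, and 0.885, 1.84, 1.06 and 2.01 in dKD. The log2 values were -3.18 (standard error 0.435, adjusted p = 0.00146) in Nr5a2 KD and -3.02 (0.428, adjusted p = 0.00289) in dKD against control (edgeR). Against Klf5 KD the dKD value was -2.29 (0.542), with an adjusted p of 0.0147 (edgeR). The adjusted p became 0.110 without Klf5 KD replicate 3, the highest of its group, and 0.0878 with a replicate block. With each library left out in turn, the value ranged from -2.63 to -1.51. Of the 11 listed targets other than Gsc, 4 had enough counts for the test in Nr5a2 KD. Besides Mixl1 and Id2 these were the BMP targets Id1 and Id3, at -0.05 and -0.18 on the log2 scale with adjusted p of 0.985 and 0.748 (edgeR).

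Id2, a target of BMP signalling and an inhibitor of bHLH factors, rose. Its level was 0.455 and 1.48 CPM in control, 19.5, 14.2 and 21.6 in Nr5a2 KD, 1.44, 0.591 and 2.35 in Klf5 KD, and 5.56, 33.3, 6.50 and 14.8 in dKD. No Nr5a2 KD or dKD library overlapped control or Klf5 KD, a separation found for 11.7% of tested genes. Its log2 fold change came to 4.23 (0.508, adjusted p = 0.000775) in Nr5a2 KD, 3.93 (0.860, adjusted p = 0.0175) in dKD against control and 3.39 (0.676, adjusted p = 0.00601) in dKD against Klf5 KD (edgeR). With each library left out in turn, the value ranged from 3.64 to 5.32 in Nr5a2 KD and from 3.21 to 5.03 in dKD against control. Leaving out control replicate 1 ended the dKD call against control (adjusted p = 0.162, edgeR), as did leaving out control replicate 2 (0.0984). The call against Klf5 KD was lost with a replicate block (adjusted p = 0.0660, edgeR).

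Of the BMP branch, Bmp7, a ligand, was at 1.82 and 1.74 CPM in control and 3.24, 1.54 and 2.35 in Klf5 KD, with no count in the 7 libraries of Nr5a2 KD and dKD. It was at least 14.1-fold lower in Nr5a2 KD and 18.9-fold lower in dKD than in control, and at least 26.2-fold lower in dKD than in Klf5 KD, taking 3 counts over the group as the floor. Adjusted p was 0.0217, 0.0242 and 0.00283 (edgeR). The call in Nr5a2 KD was lost with a replicate block (adjusted p = 0.0958, edgeR) and in the fit that holds the mitochondrial share (0.457), and so was that in dKD against control (0.0758 and 0.231). Over all alternatives the fitted log2 fold change stayed between -6.85 and -6.24 in both comparisons, a size that depends on how counts of 0 are handled. Bmpr1a, the type I BMP receptor, was at 82.1 and 70.0 CPM in control and 34.2, 34.4 and 32.2 in Nr5a2 KD, a log2 fold change of -1.15 (0.219, adjusted p = 0.00796, edgeR). With ERCC counts in place of TMM it was -0.39 (adjusted p = 0.560, edgeR). The call was also lost without control replicate 1 and without control replicate 2, while the value with each library left out in turn ranged from -1.26 to -1.05. In dKD against control it was -0.91 (0.216), short of 2-fold.

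Ski, a repressor of SMAD-dependent transcription, was at 19.9 and 26.3 CPM in control, 6.84, 9.92 and 6.28 in Nr5a2 KD, 17.5, 38.3 and 28.2 in Klf5 KD, and 11.1, 11.6, 7.91 and 8.86 in dKD. The Nr5a2 KD and dKD libraries were all below control and Klf5 KD, and 11.7% of tested genes separated the same libraries in one direction or the other. Its log2 fold change came to -1.56 (0.325, adjusted p = 0.0123) in Nr5a2 KD, -1.19 (0.280, adjusted p = 0.0244) in dKD against control and -1.49 (0.307, adjusted p = 0.00719) in dKD against Klf5 KD (edgeR). With ERCC counts in place of TMM the calls against control were lost, at -0.84 (adjusted p = 0.223, edgeR) in Nr5a2 KD and -0.42 (0.334) in dKD. They were also lost in the fit that holds the mitochondrial share (0.0795 in Nr5a2 KD and 0.0682 in dKD). With a replicate block the call was lost in dKD against control (0.0680) and against Klf5 KD (0.0689), and the former also without dKD replicate 3 (0.0554) or 4 (0.0622). With a control library left out, the listed genes called in Nr5a2 KD were Mixl1, Id2 and Ski without replicate 1 and Mixl1 and Id2 without replicate 2, and the gene called in dKD against control was Mixl1 without either.

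**Figure D4:**
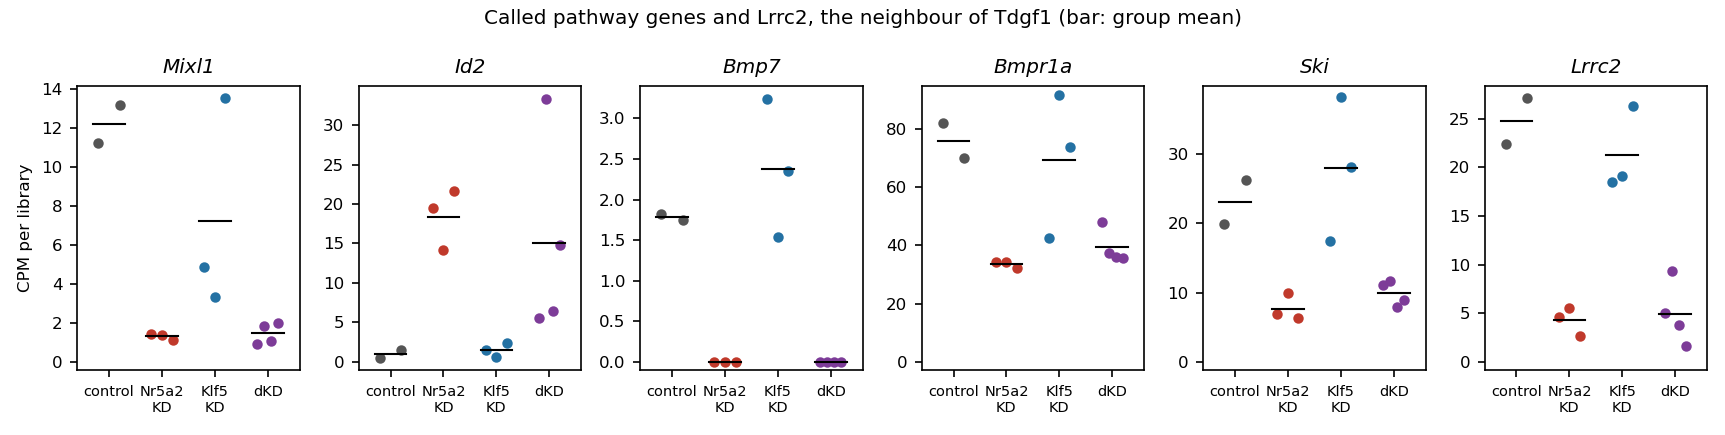
CPM of the 5 called genes of the wider list and of Lrrc2 in the 12 libraries (points), with the group mean as a bar and a separate linear axis from 0 in each panel. Bmp7 was at 0 in all Nr5a2 KD and dKD libraries, and Id2 was at 5.56 CPM or more in them and at 2.35 or less elsewhere.

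The genes around Tdgf1 and Gsc were also examined, within 250 kb of the start. Of 24 annotated genes near Tdgf1, 4 were tested in Nr5a2 KD against control and 1 fell, beside 7.86% of all tested genes called. It was Lrrc2, whose start lies at -5.39 kb from that of Tdgf1, on the other strand. The calls were 2 of 4 tested in dKD against control and 1 of 2 in dKD against Klf5 KD, beside 7.24% and 10.8% of all tested genes. Counts this small are given as a description. Lrrc2, a leucine-rich repeat gene, was at 22.4 and 27.1 CPM in control, 4.60, 5.51 and 2.64 in Nr5a2 KD, 18.5, 19.1 and 26.3 in Klf5 KD, and 5.06, 9.36, 3.78 and 1.65 in dKD. Nr5a2 KD and dKD did not overlap control or Klf5 KD, as for 11.7% of tested genes.

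The log2 fold change of Lrrc2 was -2.52 (0.357, adjusted p = 0.00172) in Nr5a2 KD, -2.30 (0.472, adjusted p = 0.0137) in dKD against control and -2.10 (0.440, adjusted p = 0.00800) in dKD against Klf5 KD (edgeR). In Klf5 KD it was -0.22 (0.308, adjusted p = 0.881, edgeR). With control replicate 1 left out the dKD call against control was lost (adjusted p = 0.0764, edgeR), and with control replicate 2 left out likewise (0.121). Gm10030, at -43.3 kb from Tdgf1, fell in dKD against control (-3.23, standard error 0.843, adjusted p = 0.0374, edgeR) at 1 to 3 counts per dKD library. Leaving out control replicate 1 (adjusted p = 0.246), control replicate 2 (0.30) or dKD replicate 4 (0.0871) ended the call, as did ERCC counts in place of TMM (0.0615), a replicate block (0.144) and the mitochondrial share in the fit (0.106). None of the 13 genes annotated near Gsc had enough counts to be tested, and the highest of them, Gm10000, whose start adjoins that of Gsc on the other strand, had 28 counts over the 12 libraries.

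The genes whose level followed that of Tdgf1 most closely over the 12 libraries were Dnal1, Dhx57, Alox12, Clcn2 and Mir1956, with Pearson r from 0.974 to 0.983. Their mean level in Nr5a2 KD was 24.0, 7.31, 16.5, 9.86 and 0.666 CPM, beside 78.2, 28.0, 64.8, 68.8 and 6.32 in control. Gsc was followed most closely by Calm5, Sfmbt2, Dusp6, Gip and Dgat2, with r from 0.966 to 0.981. Of these, Dusp6, a phosphatase that inactivates ERK, averaged 3.24 CPM in control, 34.4 in Nr5a2 KD, 0.0489 in Klf5 KD and 29.8 in dKD. Sfmbt2, a Polycomb-group gene, averaged 3.07, 19.5, 1.58 and 15.0 CPM in the same order. The 12 libraries share 4 groups and one scaling, so these values are a description.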

How the data were processed

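Per the labels and the study's methods, the authors trimmed read pairs with TrimGalore 0.6.2, aligned them with STAR (version not given in the sources used here) to GRCm38 extended by the H2B-EGFP and ERCC sequences, and assigned them to exons with featureCounts 2.0.1 without using strand. The deposited values are estimated counts, not scaled for depth, in which a pair over several genes is split, so 7.3 to 8.66% of values per library were not whole. They were rounded here.

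The members and lists were chosen with earlier results of these data known. Genes passed filterByExpr (minimum count 10, minimum total 15) in the libraries compared and were tested in edgeR 4.0.16 (TMM, quasi-likelihood, Benjamini-Hochberg over all genes tested, R 4.3.3). CPM used TMM factors over 12 libraries, and similar patterns were sought in log2 CPM, prior count 2. Named genes are the 10 members, called genes of the wider list (at most 8 per comparison) and near Tdgf1 and Gsc (at most 5 each), the 5 closest patterns to each, and Nr5a2 and Klf5. Gm10000, Id1, Id3, Smad2, Smad3, Smad4, Dand5 and the genes with a deviating library were chosen with their values in view. The fits were tested on simulated data. Promoters are from RefSeq and cover 5 of the 10 members.

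Nothing in the labels says that libraries came from separate cultures or matings beyond being separate pools, so p-values measure the spread between these pools. Same-numbered libraries of Nr5a2 KD and of dKD deviated together (correlations 0.128, 0.229 and 0.253), but so did Nr5a2 KD replicate 3 with dKD replicate 4 (0.264) and Nr5a2 KD replicate 2 with dKD replicate 1 (0.102). The sources used here do not say what the number marks, and it was used as a block in an alternative fit. Alternatives were DESeq2 1.42.0, other scalings, no filter, all libraries in one fit, the mitochondrial share as a covariate and leaving out each library. Figures were drawn with matplotlib 3.10.9.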

Additional observations from a re-analysis of the deposited data

Results flagged for a closer look

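In dKD, the only group large enough for a check of single libraries, 46 genes of the members and the wider list were examined and 3 had a library far from the others; chance alone flags about 1 in 20 groups. Gdf11, a ligand of the activin branch, was at 1.01 CPM in dKD replicate 1 and at 2.55 to 2.72 in the other 3 libraries. Bmp4 was at 2.55 CPM in dKD replicate 2 and at 0 to 0.379 in the others. Bmpr1a was at 48.2 CPM in dKD replicate 1 and at 35.7 to 37.4 in the others. No member was among them.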

How the results depend on the processing

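The limits are few control libraries (n = 2), members near the detection limit (Foxh1, Lefty1) and amplified libraries without molecular identifiers. Under the alternatives, no member value in the tested comparisons passed the threshold. Scaling by ERCC counts raised the median over all tested genes (log2) from 0.04 to 0.82 in Nr5a2 KD, from 0.05 to 0.84 in dKD and from 0.00 to 0.66 in Klf5 KD against control, and changed the calls over all genes in Nr5a2 KD from 586 lower and 457 higher to 90 and 761, and in dKD from 529 and 464 to 178 and 2838. Total counts gave 453 and 504 in Nr5a2 KD, 418 and 650 in dKD, and 486 and 1068 in dKD against Klf5 KD, where TMM gave 698 and 694. The cause of the changes below was not tested.

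For the wider list, Nr5a2 KD against control had 5 calls, 3 with ERCC scaling and 3 when the mitochondrial share was a covariate. In dKD against control the 4 calls became 7 with ERCC scaling (Dand5, Smad2, Smad3 and Smad4 added, Ski lost) and 2 with the covariate, and in dKD against Klf5 KD the 4 became 8 with total counts. Near Tdgf1 the 2 calls of dKD against control became 1 with ERCC scaling and 1 with the covariate. Over genes near Tdgf1 and Gsc together, that count reached 3 under another alternative. The 1 call of dKD against Klf5 KD near Tdgf1 became 2 without a filter and 2 when one fit held all 12 libraries.

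In fits with a replicate block, the list had 4 calls in Nr5a2 KD against control (Bmp7 lost), 2 in dKD against control, 1 in dKD against Klf5 KD (Bmp7) and 1 in Klf5 KD against control (Mixl1, lower), genes near Tdgf1 had 1 in dKD against control, and the log2 fold change of Tdgf1 in dKD against Nr5a2 KD was -0.29 and that of Pcsk6 in Klf5 KD -0.62. Over all genes the block gave 146 lower and 107 higher calls in Klf5 KD against control and 288 and 244 in dKD against Klf5 KD. What same-numbered libraries share beyond the number is not known for any pair of groups, and the block changed no call between Nr5a2 KD and dKD.

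In the tested comparisons, member values that changed sign were uncalled ones, and those of the interaction have no test here. With ERCC scaling they were 0.25 for Gdf3 and 0.32 for Tdgf1 in Klf5 KD, and for the interaction -0.27 for Pcsk6, -0.25 for Smad7 and -0.27 for Tdgf1. With the covariate they were -0.088 for Tdgf1 in dKD against Nr5a2 KD, and for the interaction -0.25 for Pcsk6 and -0.39 for Smad7. Among values given as a description, ERCC scaling gave 0.53 for Gdf3 (-0.28 with TMM) and 0.49 for Pcsk6 (-0.21 with TMM) in Nr5a2 KD against control.

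Leaving out each library in turn, where an arm left with 1 control was assumed to vary like the other group, list calls ranged from 2 to 6 in Nr5a2 KD and from 1 to 6 in dKD against control, and calls near Tdgf1 from 0 to 2 in dKD against control and from 1 to 2 in dKD against Klf5 KD. In Klf5 KD against control the log2 fold change ranged from -0.77 to 1.15 for Pcsk6, from -1.75 to 0.62 for Smad7 and from -0.91 to 0.022 for Tdgf1. In dKD against Nr5a2 KD it ranged from -0.53 to 0.11 for Furin and from -0.92 to 0.51 for Tdgf1. The interaction ranged from -0.94 to 0.94 for Pcsk6, from -1.24 to 1.13 for Smad7 and from -0.52 to 0.95 for Tdgf1.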
